A study of Mus musculus with 6 samples.

Results

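Oxidative phosphorylation was examined through the genes that encode subunits of respiratory complexes I to IV and of ATP synthase (complex V). Members were all rows of the deposited gene table whose symbol begins with *Nduf* (series a, b, c, s and v), is *Sdha* to *Sdhd*, begins with *Uqcr*, names a *Cox5* to *Cox8* subunit, begins with *Atp5*, or names one of the mitochondrially encoded protein genes, without symbols that mark pseudogenes. This gave 102 of 56980 genes, 89 in the nuclear genome and 13 in the mitochondrial genome. The nuclear members comprised 42 genes of complex I, 4 of complex II, 8 of complex III, 17 of complex IV and 18 of complex V, assigned by symbol. The pattern does not take in *Cyc1*, *Cycs*, *Cox4i1*, *Cox4i2* and *Ndufab1*, and their values are given apart from the members. All 102 members were found by identifier in the GENCODE M21 annotation of mm10. Of these, 4 (*Ndufa11b*, *Ndufb4c*, *Ndufs6b* and *Cox6c2*) are annotated as processed pseudogenes there, and *Ndufb1* as a noncoding transcript of a bidirectional promoter.

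The RNA came from MSCs of bone marrow, adherent marrow cells kept in culture for 7 days with repeated washes and with no sorting step described. The cells came from female mice, all ovariectomized (OVX) at the age of 8 weeks, that had their own microbiota depleted with antibiotics, and then received FMT by gavage for 8 weeks. Recipients of feces from sedentary mice formed the FMT-Ctrl group and recipients of feces from exercised mice the FMT-Exer group (named TranspCtrl and TranspExer in the study), with 3 samples in each. Neither the labels nor the methods say whether a sample is 1 mouse or a pool, so the p-values measure the spread between these samples, which may be technical.

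The respiratory chain passes electrons from NADH and succinate to oxygen and pumps protons out of the mitochondrial matrix, and ATP synthase uses the returning protons to make ATP. Most subunits are encoded in the nucleus and imported, whereas a few membrane-embedded core subunits are transcribed from mitochondrial DNA, so the complexes need both genomes. MSCs are known to rely largely on glycolysis while undifferentiated and to use more oxidative phosphorylation as they become osteoblasts.

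The total of estimated counts per sample lay between 17647682 and 21319228, where 3 counts correspond to at most 0.174 CPM (counts scaled to a common library size after TMM), a floor that covers counting error only. FMT-Ctrl replicate 1 stood apart from the other samples of its group. The chi-square of counts, averaged over genes and near 1 where only counting error separates samples, was 59 and 53.3 between it and FMT-Ctrl replicates 2 and 3, 3.79 between replicates 2 and 3, and 4.53 to 7.97 within the FMT-Exer group. Among nuclear members, the median absolute log2 difference was 0.40 and 0.28 between FMT-Ctrl replicate 1 and the other FMT-Ctrl samples, and 0.09 to 0.17 for every other pair within a group. The main fit keeps this library, and values without it are given for part of the genes. The stromal markers of the label were present, but genes of other marrow cells were present too and differed between groups. Of 12 stromal markers, 9 were lower and 2 higher in FMT-Exer, and their summed level was 14493 to 22664 CPM in FMT-Ctrl and 13889 to 15180 CPM in FMT-Exer. Of 8 endothelial markers, 8 were higher, with summed levels of 197 to 253 against 722 to 779 CPM. Macrophage markers, 2 higher and 3 lower of 10, summed to 8463 to 12763 against 6567 to 7047 CPM, neutrophil markers, 5 higher and 1 lower of 10, to 3282 to 4356 against 5762 to 6001 CPM, and B and plasma cell markers, 1 higher and 7 lower of 10, to 2117 to 2450 against 802 to 853 CPM. Pericyte and smooth muscle markers, 5 higher and 2 lower of 7, summed to 2052 to 2296 against 1590 to 1753 CPM. The lists for megakaryocytes (3 higher of 5), T and NK cells (2 higher and 1 lower of 9, or 22.2% and 11.1%) and adipocytes (2 higher of 3 tested) also held calls. None of the 8 erythroid markers, globins included, passed the low-count filter, and they summed to less than 1 CPM in every sample. Calls here are at an adjusted p under 0.05 (edgeR), where 16.6% of all genes tested were called higher and 15.5% lower. In such bulk RNA, fewer cells of a type and less RNA per cell cannot be told apart, and the part of these markers in the results on subunit genes was not tested.

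Few subunit genes passed the test between the groups, and a gene that missed the threshold is not thereby shown to be unchanged. Of the 94 members that passed the low-count filter, 2 were higher (*Uqcrc1* and *Ndufa8*) and 6 were lower (*Ndufa4l2*, *Uqcrq*, *Cox7b*, *Cox7a2l*, *Ndufv3* and *Uqcrc2*) in FMT-Exer at an adjusted p-value under 0.05 (edgeR, quasi-likelihood F test, Benjamini-Hochberg over 15190 genes), and 29 had an unadjusted p under 0.05. That is 2.13% and 6.38% of the members, whereas 16.6% of all genes tested were called higher and 15.5% lower. A single member, *Ndufa4l2*, also passed the study's fold change threshold of 2, or 1.06% of members beside 8.78% of all genes. Levels in the groups did not overlap for 12 members that were higher and 14 that were lower, beside 27.2% and 25.1% of all genes tested. The 8 members outside the test (*Cox6c2*, *Cox7b2*, *Cox8b*, *Cox8c*, *Ndufa11b*, *Ndufb11b*, *Ndufs6b* and the second row named *Atp5o*) reached no more than 1 count in a sample.

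The fold changes of the 2 genomes lay on different sides of 0, with small sizes. The median log2 fold change (FMT-Exer over FMT-Ctrl) was -0.20 over 81 nuclear members, of which 61 were negative, and 0.24 over 13 mitochondrial members, of which 10 were positive, beside -0.02 over all genes tested. Both medians moved towards 0 without FMT-Ctrl replicate 1, to -0.08 and 0.04, and the mitochondrial one to -0.05 when the near-identical copies were also added. In that library 54 of 81 nuclear members were above all other 5 samples, and 11 of 13 mitochondrial members were below all other 5. The 78 nuclear members with a mean of at least 1 CPM had a median length of 737 bases. Those shorter had a median log2 fold change of -0.24, beside -0.34 over all 628 shorter genes tested with such a mean. In the longer ones it was -0.11, beside 0.005 over 13314 genes.

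**Figure D1:**
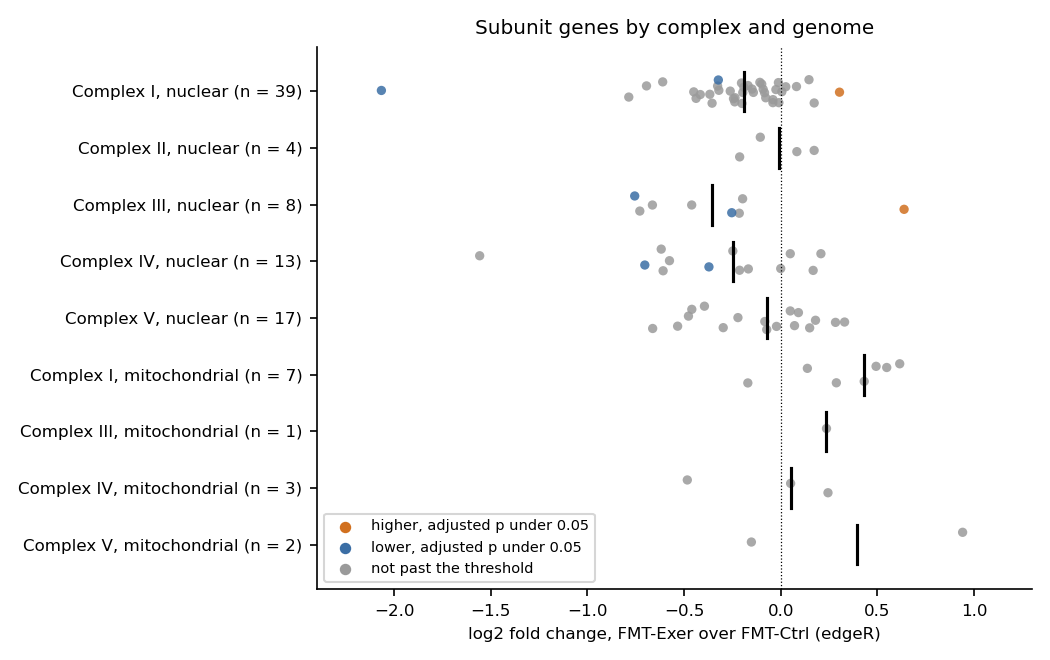
Log2 fold change of the 94 tested subunit genes (x axis, FMT-Exer over FMT-Ctrl) by complex and genome (y axis), with each point a gene, a vertical bar for the median and colour for an adjusted p under 0.05. The 8 coloured points are all nuclear, and *Ndufa4l2* at -2.07 lies far from the others.

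Without FMT-Ctrl replicate 1, 11 members were called higher and 15 lower, and the 8 calls named above were all among them. The background rose as well, to 22.1% of all genes tested called higher and 19.6% lower. The calls added among higher members were *Ndufs7*, *Sdhc*, *Atp5b*, *Atp5d*, *Atp5g3*, *mt-Nd1*, *mt-Nd2*, *mt-Nd4* and *mt-Atp6*, and those among lower members included *Ndufa2*, *Ndufb11*, *Uqcrh*, *Cox6b1*, *Cox7c*, *mt-Nd5*, *mt-Co1* and *mt-Atp8*. In the 6-sample fit none of these passed the threshold. Conversely, without FMT-Ctrl replicate 3 only 3 of the 8 calls were left (*Ndufa4l2*, *Uqcrc1* and *Cox7a2l*), and without any 1 of the FMT-Exer samples only *Ndufa4l2* and *Uqcrc1*. These genes were the members whose call held under all 14 alternatives run.

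Among the 39 nuclear members tested that were assigned by symbol to complex I, the NADH dehydrogenase, 1 was higher and 2 were lower. *Ndufa4l2* is counted here among the lower genes by its symbol. The median log2 fold change was -0.19. Without FMT-Ctrl replicate 1 the median was -0.08, with 2 higher and 5 lower. *Ndufa4l2* (chr10:127514967-127517154, plus strand, mm10) encodes a protein related to *Ndufa4* that is induced by hypoxia and is known to lower complex I activity. Its level was 17.7, 26.2 and 24.9 CPM in FMT-Ctrl replicates 1, 2 and 3 and 4.39, 5.87 and 6.16 CPM in FMT-Exer replicates 1, 2 and 3. All FMT-Exer samples were below all FMT-Ctrl samples, the lowest of which was the library that stood apart. The level was 4.19-fold lower in FMT-Exer (log2 fold change -2.07 ± 0.19 SE, n = 3 per group, adjusted p = 0.000261). The gene shares 32 bases with *Shmt2* on the opposite strand, and *Shmt2* had a mean of 2914 counts against 286 for *Ndufa4l2*. Whether counting used the strand is not given in the sources used here, so reads from these shared bases cannot be assigned.

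*Ndufa8* (chr2:36036326-36049406, minus strand), an accessory subunit on the outer side of the proton-pumping arm, measured 42.1, 35.2 and 37.6 CPM in FMT-Ctrl and 49.5, 47.8 and 44.6 CPM in FMT-Exer. The groups did not overlap, but the gap between the highest FMT-Ctrl and the lowest FMT-Exer sample was smaller than the range within either group. The log2 fold change was 0.30 ± 0.09 SE (adjusted p = 0.0365). *Ndufv3* (chr17:31520115-31531331, plus strand), an accessory subunit of the NADH-oxidizing arm, went the other way, with 43.8, 36.1 and 41.6 CPM in FMT-Ctrl and 35.4, 30.3 and 31.5 CPM in FMT-Exer. Its highest FMT-Exer sample lay just under its lowest FMT-Ctrl sample, and the log2 fold change was -0.32 ± 0.10 SE (adjusted p = 0.0434). The call of *Ndufa8* was lost in 9 of the 14 alternatives and that of *Ndufv3* in 4.

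*Ndufs3*, a core subunit of the arm that carries electrons to ubiquinone, was at 43.2, 51.4 and 52.8 CPM in FMT-Ctrl and 57.8, 54.9 and 53.4 CPM in FMT-Exer, with a log2 fold change of 0.17 ± 0.09 SE (adjusted p = 0.189, and 0.09 with adjusted p = 0.275 without FMT-Ctrl replicate 1). *Ndufa4*, first described as part of complex I and now assigned to complex IV, was at 66.5, 59 and 70.4 CPM against 67, 56.1 and 58.7 CPM, with overlapping groups (log2 fold change -0.11 ± 0.10 SE, adjusted p = 0.432). Per length, *Ndufa4l2* made up 11.4% to 17.7% of the sum of *Ndufa4* and *Ndufa4l2* in FMT-Ctrl and 3.08% to 4.84% in FMT-Exer. For a single value such as this share, the smallest exact two-sided permutation p that 3 against 3 samples allow is 0.1, and that was the p here. *Ndufab1*, the mitochondrial acyl carrier protein that is also a complex I subunit, lies outside the pattern and was at 35.4, 29.5 and 31.9 CPM in FMT-Ctrl and 31.9, 30.2 and 22.1 CPM in FMT-Exer (log2 fold change -0.20 ± 0.15 SE, adjusted p = 0.31).

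Complex II, succinate dehydrogenase, is encoded entirely in the nucleus, and none of its 4 genes was called (0 by DESeq2, and 0 with an unadjusted p under 0.05). The catalytic flavoprotein *Sdha* had 208, 230 and 235 CPM in FMT-Ctrl and 232, 228 and 252 CPM in FMT-Exer, and the iron-sulfur subunit *Sdhb* 62.8, 37.8 and 43.3 against 45.2, 40.6 and 38.4 CPM. The membrane anchors were at 76.9, 66.1 and 70.7 against 83.4, 80.3 and 77.2 CPM for *Sdhc* and at 91, 59.7 and 65.7 against 74.9, 66.2 and 60.1 CPM for *Sdhd*. For *Sdhc* alone the groups did not overlap (log2 fold change 0.17 ± 0.08 SE, adjusted p = 0.14, and 0.00799 without FMT-Ctrl replicate 1). In *Sdhb* and *Sdhd* the highest value of all 6 was that of FMT-Ctrl replicate 1.

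In complex III, the cytochrome bc1 complex, the paired core proteins were called in opposite directions. *Uqcrc1* (chr9:108936633-108949623, plus strand) measured 103, 143 and 139 CPM in FMT-Ctrl and 191, 195 and 213 CPM in FMT-Exer, so that every FMT-Exer sample was higher, and the log2 fold change was 0.64 ± 0.13 SE (adjusted p = 0.0081). *Uqcrc2* (chr7:120635176-120659524, plus strand) measured 119, 106 and 107 CPM against 93.5, 94 and 91.5 CPM, with no overlap in the lower direction and a log2 fold change of -0.25 ± 0.08 SE (adjusted p = 0.0375). Without FMT-Ctrl replicate 1 these values were 0.50 (adjusted p = 2.35e-05) and -0.20 (adjusted p = 0.00797). The call of *Uqcrc1* held in all 14 alternatives, and that of *Uqcrc2* was lost in 7, the fit without a low-count filter among them. *Uqcrc2* shares 794 bases with *Pdzd9* on the opposite strand, which had a mean of 3.83 counts against 2011 for *Uqcrc2*.

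The small ubiquinone-binding subunit *Uqcrq* (chr11:53427922-53430831, minus strand) was at 58.2, 28.7 and 35.3 CPM in FMT-Ctrl and 25.3, 24.6 and 22.5 CPM in FMT-Exer (log2 fold change -0.76 ± 0.23 SE, adjusted p = 0.0413). The groups did not overlap, but FMT-Ctrl replicate 1 was the highest by a wide margin, and without it the log2 fold change was -0.41. The hinge protein gene *Uqcrh* had the same order of samples, at 95.6, 46.6 and 55 against 46.5, 39.2 and 38.7 CPM, and did not pass the threshold (log2 fold change -0.66 ± 0.25 SE, adjusted p = 0.0722, and -0.29 with adjusted p = 0.0201 without FMT-Ctrl replicate 1). Of the 8 nuclear complex III members, 7 had a negative log2 fold change, and the median of the 8 was -0.36, or -0.23 without FMT-Ctrl replicate 1. *Cyc1*, the cytochrome c1 subunit of the same complex, lies outside the member pattern and was higher, with 50, 51.1 and 55.8 CPM in FMT-Ctrl and 66, 65 and 61.8 CPM in FMT-Exer (log2 fold change 0.30 ± 0.08 SE, adjusted p = 0.0213). Its call was kept in 8 of 14 alternatives.

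**Figure D2:**
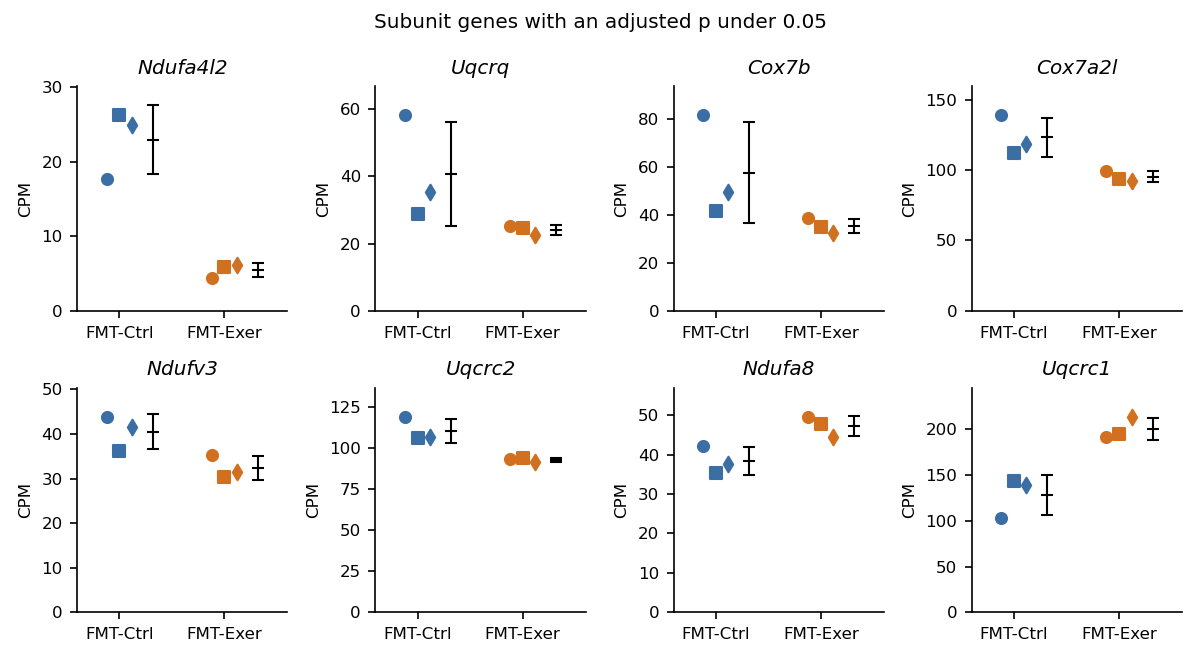
CPM (y axes, from 0) of the 8 subunit genes with an adjusted p under 0.05 in each sample, with circles, squares and diamonds for replicates 1, 2 and 3 and bars for the mean and SD of 3 samples. *Uqcrc1* and *Ndufa8* are higher in every FMT-Exer sample, and for *Uqcrq* and *Cox7b* the FMT-Ctrl circle lies well above the other FMT-Ctrl samples.

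Complex IV, cytochrome c oxidase, had 2 lower genes among 13 nuclear members tested (15.4%, near the 15.5% of all genes tested), and a median of -0.25. Without FMT-Ctrl replicate 1, 4 were lower, where 19.6% of all genes tested were called lower, and the median was -0.20. *Cox7a2l* (chr17:83501918-83517330, minus strand), which joins complexes III and IV into supercomplexes, measured 139, 112 and 119 CPM in FMT-Ctrl and 99.6, 93.5 and 92.6 CPM in FMT-Exer. The groups did not overlap (log2 fold change -0.37 ± 0.10 SE, adjusted p = 0.0219). *Cox7b* (chrX:106015700-106022450, plus strand), a small membrane subunit, measured 81.6, 41.8 and 49.7 CPM against 38.6, 35 and 32.7 CPM, with FMT-Ctrl replicate 1 far above the rest, and the log2 fold change of -0.70 ± 0.23 SE (adjusted p = 0.0463) became -0.37 (adjusted p = 0.00428) without that library.

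The tissue isoforms of complex IV were low. Per length, *Cox6a2*, the form of heart and skeletal muscle, made up 0.236% to 0.694% of the sum with *Cox6a1*, and *Cox6b2*, the testis form, 0.834% to 3.99% of the sum with *Cox6b1*. *Cox8b* and *Cox8c* had no count in any sample, and *Cox7b2* had 1 count in all. At these totals a count of 0 allows a level of up to 0.174 CPM in the shallowest library. *Cox7a1*, the muscle form of *Cox7a2*, was at 1.12, 0.719 and 0.883 CPM in FMT-Ctrl and 0.262, 0.639 and 0.0497 CPM in FMT-Exer. All FMT-Exer values were lower, but the gene had at most 23 counts and did not pass the threshold (log2 fold change -1.56 ± 0.60 SE, adjusted p = 0.0795). Of the ubiquitous counterparts of these isoforms, *Cox7b* was called lower, as given above. The others were not called, with log2 fold changes of 0.17 for *Cox6a1*, -0.58 for *Cox6b1*, -0.25 for *Cox7a2* and -0.17 for *Cox8a*. Without FMT-Ctrl replicate 1 these were 0.14, -0.25 (adjusted p = 0.0491, past the threshold), -0.06 and -0.05. Outside the pattern, *Cox4i1* had 147 to 200 CPM and its hypoxia-responsive counterpart *Cox4i2* 0.988 to 1.49 CPM over all samples, neither of them called (log2 fold change -0.12 and -0.13, and 0.02 and -0.11 without FMT-Ctrl replicate 1).

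ATP synthase had no call among 17 nuclear members by edgeR (5 with an unadjusted p under 0.05) and none by DESeq2. Without FMT-Ctrl replicate 1, 3 were called higher and 0 lower, where 22.1% and 19.6% of all genes tested were called. The catalytic F1 subunits were the most abundant nuclear members. *Atp5b*, the beta subunit, measured 605, 662 and 671 CPM in FMT-Ctrl and 750, 704 and 741 CPM in FMT-Exer, and *Atp5a1*, the alpha subunit, 508, 561 and 562 against 598, 610 and 602 CPM. Every FMT-Exer sample was higher for both, by small amounts (log2 fold change 0.18 ± 0.08 SE, adjusted p = 0.131, and 0.15 ± 0.08 SE, adjusted p = 0.185). Without FMT-Ctrl replicate 1 the log2 fold changes were 0.13 (adjusted p = 0.0396) and 0.10 (adjusted p = 0.0893). Over the 5 F1 subunits the log2 fold change ran from -0.22 for *Atp5c1* to 0.33 for *Atp5d*. These were -0.10 and 0.20 (adjusted p = 0.303 and 0.0199) without FMT-Ctrl replicate 1.

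The c ring that turns in the membrane is encoded by *Atp5g1*, *Atp5g2* and *Atp5g3*, which give the same mature protein. *Atp5g3* was at 113, 143 and 159 CPM against 174, 164 and 167 CPM (log2 fold change 0.28 ± 0.12 SE, adjusted p = 0.112, and 0.16 with adjusted p = 0.0489 without FMT-Ctrl replicate 1), and *Atp5g1* at 58.9 to 65.3 CPM over all samples (log2 fold change -0.02). *Atp5g2* was listed at 4.55 to 6.06 CPM, and the pseudogene *Gm10175*, whose 645 bases match the *Atp5g2* transcript without a difference, had 1075 to 2469 counts, above the 122 counts at most of *Atp5g2* itself. With the copy added, *Atp5g2* measured 125, 75.5 and 84.8 CPM in FMT-Ctrl and 69.1, 68.2 and 59.8 CPM in FMT-Exer (log2 fold change -0.54 ± 0.18 SE, adjusted p = 0.0514). Without FMT-Ctrl replicate 1 it was -0.29 (adjusted p = 0.00699), past the threshold. Between 89.9% and 96.2% of these summed counts were listed under the copy.

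The same split, on a larger scale, lay over the mitochondrially encoded genes. A nuclear insertion of mitochondrial DNA on chromosome 1 (mm10) holds annotated pseudogenes that carry the sequence of consecutive mitochondrial genes, from *Gm28439* (start 24611535) to *Gm29216* (end 24616197). Over 681 aligned bases, *Gm28661* matched *mt-Co2* with 0 differences, and it was listed with 63327 to 131570 counts, whereas *mt-Co2* itself had at most 5981. Differences were also 0 for *Gm28437* and *mt-Co3* over 783 bases, for *Gm10925* and *mt-Atp6* over 678 bases and for *Gm10222* and *mt-Nd4l* over 294 bases. *Gm28438* and *mt-Nd3* differed by T3C over 345 bases and *Gm29216* and *mt-Co1* by A1066T over 483 bases (the mitochondrial gene's base first, positions from 1 at the start of its transcript). The stretches of the pairs with a difference are shown to let the extent of the match be seen, 120 bases each, 5′ to 3′ from the GENCODE transcripts, with the differing base in capitals.
mt-Nd3: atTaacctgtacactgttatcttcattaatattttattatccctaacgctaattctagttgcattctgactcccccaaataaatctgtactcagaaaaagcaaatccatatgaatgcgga
Gm28438: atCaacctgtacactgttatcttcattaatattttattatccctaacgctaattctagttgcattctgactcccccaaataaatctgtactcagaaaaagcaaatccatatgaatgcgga
mt-Co1: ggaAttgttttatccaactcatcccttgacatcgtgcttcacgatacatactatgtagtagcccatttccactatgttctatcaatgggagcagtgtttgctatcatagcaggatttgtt
Gm29216: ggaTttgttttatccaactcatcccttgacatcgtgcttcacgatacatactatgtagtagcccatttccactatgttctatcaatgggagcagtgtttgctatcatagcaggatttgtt

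The copies took 95.5% to 96.6% of the summed counts of *mt-Co2*, 88.7% to 96.6% of *mt-Co3*, 89.9% to 96.7% of *mt-Atp6*, 84.1% to 90.9% of *mt-Nd4l* and 74.5% to 88.1% of *mt-Nd3*. For *mt-Co1* the share on *Gm29216* was 3.92% in FMT-Ctrl replicate 1 (7533 counts), and that copy had 55 to 1446 counts in the other samples. *Gm28439*, which matches 876 bases of *mt-Nd4* without a difference, was listed at 0 in every sample, so the split was not uniform along the insertion. The aligner and counting tool are not given in the sources used here, and which of the 2 loci a read came from cannot be told from identical sequence. As deposited, the level per length of *mt-Co1* was 8213 CPM per kilobase and that of *mt-Co2* 325. With copies added these were 8261 and 8353 over the 6 samples, with means of 8161 and 7737 in FMT-Ctrl and 8361 and 8969 in FMT-Exer. *mt-Co1* was the higher of the pair in FMT-Ctrl replicates 1 and 2 and *mt-Co2* in the other 4 samples. For the next genes the means of FMT-Ctrl and FMT-Exer are given in this order. *mt-Atp6* (3980 and 4661) was above *mt-Co3* (3831 and 3151) in both group means. *mt-Nd1* (2537 and 3711) was above *mt-Co3* in FMT-Exer alone, and *mt-Nd4* (2003 and 3070) was above *mt-Cytb* (2529 and 2976) in FMT-Exer alone. The other 6 genes had 568 (*mt-Nd3*) to 1745 (*mt-Atp8*) CPM per kilobase over the 6 samples. For comparison, the nuclear members had a median of 50 CPM per kilobase.

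None of the 13 mitochondrial genes was called in the 6-sample fit of the deposited counts by edgeR (3 with an unadjusted p under 0.05), and 1 was called higher by DESeq2. The 7 complex I subunits among them form part of the proton-pumping arm. *mt-Nd1* measured 1308, 3014 and 2962 CPM in FMT-Ctrl and 3462, 3503 and 3688 CPM in FMT-Exer, *mt-Nd2* 764, 1168 and 1213 against 1486, 1487 and 1452 CPM, and *mt-Nd4* 1415, 3393 and 3474 against 4196, 4178 and 4317 CPM. All 3 were higher in every FMT-Exer sample, and all 3 were lowest in FMT-Ctrl replicate 1, which set a wide error. Their log2 fold changes of 0.55 ± 0.28, 0.49 ± 0.17 and 0.62 ± 0.30 SE had adjusted p-values of 0.164, 0.0532 and 0.145, which became 0.25 (adjusted p = 0.000546), 0.31 (adjusted p = 0.000108) and 0.30 (adjusted p = 6.6e-05) without that library.

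*mt-Nd5*, another subunit of the same arm, showed the opposite direction, with 1573, 1552 and 1618 CPM in FMT-Ctrl and 1326, 1436 and 1454 CPM in FMT-Exer. The FMT-Ctrl samples agreed closely here, FMT-Ctrl replicate 1 included, and the groups did not overlap (log2 fold change -0.17 ± 0.08 SE, adjusted p = 0.153, and 0.0139 without FMT-Ctrl replicate 1). *mt-Nd6*, the only member on the light strand, was at 278, 307 and 374 against 414, 371 and 387 CPM (log2 fold change 0.29 ± 0.12 SE, adjusted p = 0.0975). *mt-Nd5* and *mt-Nd6* share 14 bases on opposite strands.

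For *mt-Cytb*, the cytochrome b of complex III, the level was 2046, 3322 and 3311 CPM in FMT-Ctrl and 3402, 3380 and 3432 CPM in FMT-Exer (log2 fold change 0.23 ± 0.18 SE, adjusted p = 0.341, and a log2 fold change of 0.04 without FMT-Ctrl replicate 1). *mt-Co1*, which carries the oxygen-reducing site of complex IV, measured 9008, 14530 and 13852 against 12498, 13019 and 13224 CPM, with overlapping groups. Its log2 fold change changed sign with FMT-Ctrl replicate 1, from 0.05 (adjusted p = 0.841) with it to -0.14 (adjusted p = 0.0146) without it. *mt-Atp8* was at 271, 381 and 472 against 337, 279 and 396 CPM (log2 fold change -0.15 ± 0.20 SE, adjusted p = 0.591, and -0.34 with adjusted p = 0.0326 without FMT-Ctrl replicate 1), and shares 43 bases with *mt-Atp6* on the same strand.

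Adding the copies changed the values of the remaining genes. *mt-Co3*, a core subunit of complex IV, was spread over 160, 179 and 344 CPM in FMT-Ctrl and 198, 210 and 81.1 CPM in FMT-Exer as deposited (log2 fold change -0.48 ± 0.39 SE, adjusted p = 0.37). The sum with its copy was 2930, 3042 and 3039 CPM in FMT-Ctrl and 2544, 2451 and 2415 CPM in FMT-Exer, with close replicates in both groups and no overlap, and it was the 1 mitochondrial gene called then (log2 fold change -0.28 ± 0.08 SE, adjusted p = 0.035, where 15.6% of 15181 genes were called lower). *mt-Atp6*, the proton channel subunit of ATP synthase, moved the other way, from 0.94 ± 0.37 SE (adjusted p = 0.0858) as deposited to 0.23 ± 0.18 SE (adjusted p = 0.359) with its copy, at 1908, 3078 and 3145 against 3135, 3251 and 3138 CPM. *mt-Co2*, which accepts electrons from cytochrome c, was at 3212, 6284 and 6380 against 5953, 5905 and 6546 CPM (log2 fold change 0.21 ± 0.24 SE, adjusted p = 0.514, and a log2 fold change of -0.05 without FMT-Ctrl replicate 1). The sums of *mt-Nd3* and *mt-Nd4l* overlapped between the groups, with log2 fold changes of -0.05 and 0.02, or -0.09 and -0.20 without FMT-Ctrl replicate 1.

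**Figure D3:**
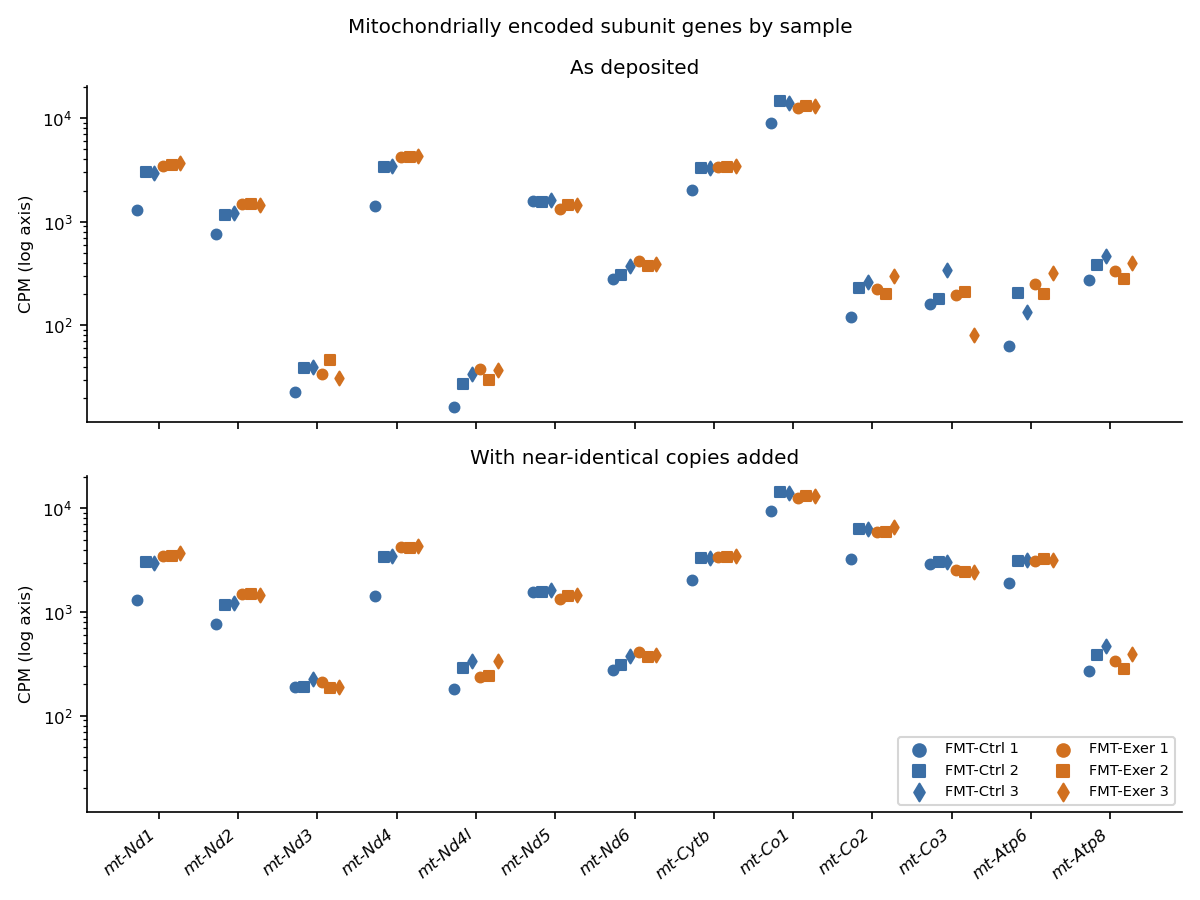
CPM (y axes, log scale) of the 13 mitochondrially encoded subunit genes in each sample, as deposited (top) and with the counts of near-identical copies added (bottom). In the lower panel *mt-Co2* reaches 3212 to 6546 CPM, still under *mt-Co1*, and the replicates of *mt-Co3* draw together, while FMT-Ctrl replicate 1 stays low for most genes.

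With copies added and FMT-Ctrl replicate 1 left out, both chosen after seeing the data, 3 mitochondrial genes were higher (*mt-Nd1*, *mt-Nd2* and *mt-Nd4*) and 4 lower (*mt-Co3*, *mt-Co1*, *mt-Nd5* and *mt-Atp8*), where 22.1% and 19.6% of 15483 genes were called in these directions. The log2 fold changes called ran from -0.34 to 0.31. *mt-Atp6*, called higher without FMT-Ctrl replicate 1 as deposited, was at 0.03 (adjusted p = 0.626) with its copy.

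The share of all counts on the 13 mitochondrial protein genes did not separate the groups. It was 1.83%, 2.85% and 2.83% in FMT-Ctrl and 2.7%, 2.76% and 2.81% in FMT-Exer, a difference of means of 0.253 percentage points (exact two-sided permutation test, p = 1, smallest possible p 0.1). The FMT-Exer samples lay between FMT-Ctrl replicate 1 and the other FMT-Ctrl samples. With copies added the shares were 2.74%, 4.07% and 4.08% against 3.79%, 3.87% and 3.96%. The copies held 30.1% to 33% of these summed counts in FMT-Ctrl and 28.6% to 29% in FMT-Exer. The nuclear members together took 0.619%, 0.505% and 0.545% of all counts in FMT-Ctrl and 0.528%, 0.501% and 0.494% in FMT-Exer (exact two-sided permutation test, p = 0.2).

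The departure of FMT-Ctrl replicate 1 went with gene length. Over the 78 nuclear members with a mean of at least 1 CPM, 34 of 39 genes shorter than the median length of 737 bases were higher in this library than the mean of FMT-Ctrl replicates 2 and 3, with a median log2 ratio of 0.39, against 26 of 39 longer genes with a median of 0.17. Spearman's rho between length and this ratio was -0.50 over these genes, which share their libraries and are not independent replicates. The pattern was not particular to subunit genes. Of 628 genes shorter than 737 bases among all 13942 genes tested that had a mean of at least 1 CPM, 80.3% were higher in FMT-Ctrl replicate 1, against 46% of 13314 longer genes. The ratio of FMT-Exer to FMT-Ctrl replicates 2 and 3 had a rho of 0.19 with length, and its median was -0.08 in shorter and -0.07 in longer nuclear members. Over the 13942 genes, this rho was 0.02, but the median ratio was -0.19 in shorter and 0.02 in longer genes, and 39 of the shorter genes were called higher and 223 lower in the 6-sample fit. The log2 fold change without FMT-Ctrl replicate 1 had a median of -0.21 in these shorter genes and 0.01 in the longer ones, so short genes were lower in FMT-Exer also without that library. *Cox7b* (1001 bases), *Uqcrq* (405 bases) and *Uqcrh* (547 bases) were among the members raised in FMT-Ctrl replicate 1. RNA quality values were not among the data used, and the source of the length pattern was not tested.

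**Figure D4:**
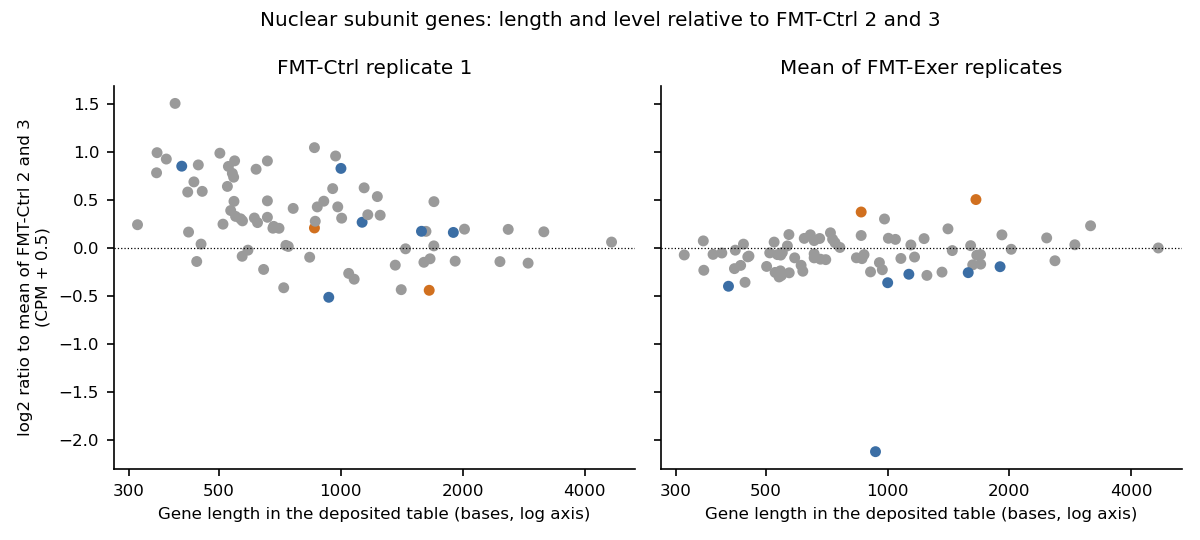
Gene length (x axes, log scale) of 78 nuclear subunit genes against the log2 ratio of CPM + 0.5 to the mean of FMT-Ctrl replicates 2 and 3 (y axis), for FMT-Ctrl replicate 1 (left) and the mean of FMT-Exer (right), with called genes in orange (higher) and blue (lower). Short genes lie mostly above 0 on the left (rho -0.50) and near 0 on the right (rho 0.19).

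Genes that regulate subunit expression from the nucleus had 2 calls among 13 tested of 17 listed, both higher, which is 15.4% and near the 16.6% of all genes tested that were called higher. *Esrra*, the nuclear receptor ERRA that drives many respiratory genes, measured 22.9, 25.8 and 30.3 CPM in FMT-Ctrl and 34.8, 33 and 38.7 CPM in FMT-Exer (log2 fold change 0.43 ± 0.12 SE, adjusted p = 0.0282). *Pprc1*, a coactivator of the PGC-1 family, measured 44.3, 54.9 and 50.3 against 61, 64.1 and 70.5 CPM (log2 fold change 0.39 ± 0.10 SE, adjusted p = 0.0218). The groups did not overlap for either. The coactivator *Ppargc1a* had at most 0.186 CPM and was not tested, nor were *Esrrb*, *Esrrg* and *Ppara*, while *Ppargc1b* had 1.86 to 2.98 CPM (log2 fold change -0.26). *Nrf1* was at 30.4, 35.6 and 33.5 against 36.9, 37.4 and 40.3 CPM (log2 fold change 0.20 ± 0.09 SE, adjusted p = 0.112). Without FMT-Ctrl replicate 1, *Ppard* was called as well (0.24, adjusted p = 0.048), the value of *Yy1* was 0.10, and *Sirt3*, *Perm1* and *Nrip1* changed sign. The other regulators were not called in the 6-sample fit, with log2 fold changes of 0.35 for *Ppard*, 0.29 for *Yy1*, 0.25 for *Sirt1*, 0.19 for *Gabpb1*, 0.11 for *Hcfc1*, 0.05 for *Nrip1*, -0.12 for *Gabpa*, -0.19 for *Sirt3* and -0.24 for *Perm1*.

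Sequences that such factors are known to bind were counted in RefSeq promoters (GRCm38.p6, 250 bases before to 50 after the start), on both strands, and a stretch could count for more than 1 motif. Promoters were listed for 69 of 89 nuclear members. The NRF1 motif CGCATGCG was present in 9 of the 69 (13%, against 2.07% of 27025 genes), the YY1 motif AAGATGGC in 10 (14.5%, against 3.19%), the GABPA motif CCGGAAGT in 5 (7.25%, against 4.31%) and the ERRA motif TCAAGGTCA in 2 (2.9%, against 0.466%). Of the 8 called members, 5 had a listed promoter. Those of the 2 higher genes, *Ndufa8* and *Uqcrc1*, each held the NRF1 motif, and those of *Ndufv3*, *Cox7a2l* and *Cox7b* held none of the 4. The NRF1 motif was not confined to members with a positive log2 fold change. *Uqcr11*, *Atp5l*, *Atp5k* and *Ndufa11*, named after their values were seen, held it as well. Their log2 fold changes were -0.73, -0.53, -0.46 and -0.26 (-0.38, -0.24, -0.07 and -0.08 without FMT-Ctrl replicate 1). The remaining members with it, *Cox6a1*, *Atp5g2* and *Atp5j*, had 0.17, 0.09 and 0.05 (0.14, 0.04 and 0.05 without that library). Apart from *Ndufa8* and *Uqcrc1*, no member with the motif passed the threshold in either fit of the deposited counts. As deposited, the median over the 9 tested members with the motif was 0.05, against -0.17 over the 58 without it. With its copy added, *Atp5g2* was at -0.54. These matches are descriptions of the sequence, not sites of binding. The 250 bases before the start of *Ndufa8* (minus strand of chr2:36049339-36049588) and 28 bases after that of *Uqcrc1* (plus strand of chr9:108936669-108936696) are shown with the NRF1 motif in capitals.
Ndufa8: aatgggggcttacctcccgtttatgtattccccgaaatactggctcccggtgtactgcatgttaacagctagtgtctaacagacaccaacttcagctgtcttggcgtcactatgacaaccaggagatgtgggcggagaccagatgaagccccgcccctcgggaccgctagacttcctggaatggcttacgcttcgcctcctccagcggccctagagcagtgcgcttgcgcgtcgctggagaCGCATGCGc
Uqcrc1: ctccgctctgCGCATGCGcagcgcggct

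Genes that build the complexes were called in a few cases, to be read beside the 16.6% of all genes tested called higher and 15.5% called lower. Among 17 complex I assembly factors tested, 4 (23.5%) were lower and 0 higher, including *Nubpl*, which delivers iron-sulfur clusters (log2 fold change -0.51, adjusted p = 0.0373), *Tmem186* (-0.44, adjusted p = 0.0386) and *Lyrm2* (-0.60, adjusted p = 0.0405). The call of *Nubpl* was kept in 7 of 14 alternatives, and those of *Tmem186* and *Lyrm2* in 10 each. None of 4 complex II factors or 3 complex V factors was called by edgeR or DESeq2 (1 in each with an unadjusted p under 0.05), and 1 of 6 complex III factors (16.7%), *Lyrm7*, was lower (-0.83, adjusted p = 0.0353). It had 15 to 40 counts per sample, was not called by DESeq2, and kept its call in 6 of 14 alternatives. In complex IV, 3 of 24 factors (12.5%) were higher, among them the heme synthesis enzyme *Cox10* (0.47, adjusted p = 0.0165), and 2 (8.33%) were lower. The latter were *Taco1*, the translational activator of *mt-Co1* (-0.55, adjusted p = 0.0165), and *Higd1a*, a hypoxia-induced protein that associates with complex IV. *Higd1a* measured 52.1, 40.6 and 44 CPM in FMT-Ctrl and 24.1, 21.4 and 21.3 CPM in FMT-Exer, without overlap (log2 fold change -1.03 ± 0.11 SE, adjusted p = 0.000516).

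Of 26 genes that maintain and express mitochondrial DNA, 1 (3.85%) was higher and 5 (19.2%) were lower. *Mterf4*, which is needed to assemble the mitochondrial ribosome, fell from 25.4, 28 and 31.1 CPM in FMT-Ctrl to 14.2, 11.3 and 14 CPM in FMT-Exer (log2 fold change -1.09 ± 0.12 SE, adjusted p = 0.000629). Its relative *Mterf2* measured 5.03, 4.26 and 3.49 against 1.88, 2.15 and 2.19 CPM (log2 fold change -1.04, adjusted p = 0.00669), and *Tfb1m*, the methylase of the small ribosomal RNA, 5.71, 4.93 and 5.3 against 2.93, 3.78 and 3.53 CPM (log2 fold change -0.64, adjusted p = 0.0191). Of 78 mitochondrial ribosomal protein genes, 5 (6.41%) were higher, including *Mrps25* (0.41, adjusted p = 0.0169), *Mrpl43* (0.37, adjusted p = 0.023) and *Mrps2* (0.35, adjusted p = 0.0269), and 1 (1.28%) was lower. Their median log2 fold change was -0.09, and 0.02 without FMT-Ctrl replicate 1.

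In the list of the tricarboxylic acid cycle and pyruvate dehydrogenase, 2 of 25 genes (8%) were higher and 3 (12%) lower, shares under those of all genes tested (16.6% and 15.5%). *Pdha1*, the catalytic subunit of pyruvate dehydrogenase, measured 185, 191 and 183 CPM in FMT-Ctrl and 134, 130 and 132 CPM in FMT-Exer (log2 fold change -0.50 ± 0.07 SE, adjusted p = 0.00167). *Pdk1*, the hypoxia-induced kinase that inactivates this enzyme, was lower as well, at 93.7, 117 and 119 against 68.7, 62.8 and 65.3 CPM (log2 fold change -0.75 ± 0.11 SE, adjusted p = 0.00177). *Ogdh*, a subunit of the oxoglutarate dehydrogenase of the cycle, was higher, at 126, 195 and 186 against 246, 255 and 278 CPM (log2 fold change 0.62 ± 0.16 SE, adjusted p = 0.0209).

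Among 12 carriers and uncoupling proteins tested, 1 (8.33%) was higher and 2 (16.7%) lower. *Ucp2*, a carrier of the inner membrane with high expression in blood cells and macrophages, measured 330, 563 and 556 CPM in FMT-Ctrl and 1079, 1105 and 1118 CPM in FMT-Exer, or 2.28-fold higher (log2 fold change 1.19 ± 0.19 SE, adjusted p = 0.00302). *Slc25a4*, which exchanges ADP for ATP, measured 218, 192 and 207 against 158, 145 and 152 CPM (log2 fold change -0.44 ± 0.08 SE, adjusted p = 0.00585), and *Slc25a27* at most 1.51 CPM (log2 fold change -1.05, adjusted p = 0.0487, and 0.124 without FMT-Ctrl replicate 1). *Cycs*, the cytochrome c that carries electrons from complex III to IV, did not pass the threshold, at 48.2 to 63.8 CPM over all samples (log2 fold change -0.01, and 0.14 without FMT-Ctrl replicate 1), and its testis form *Cyct* had no count.

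**Figure D5:**
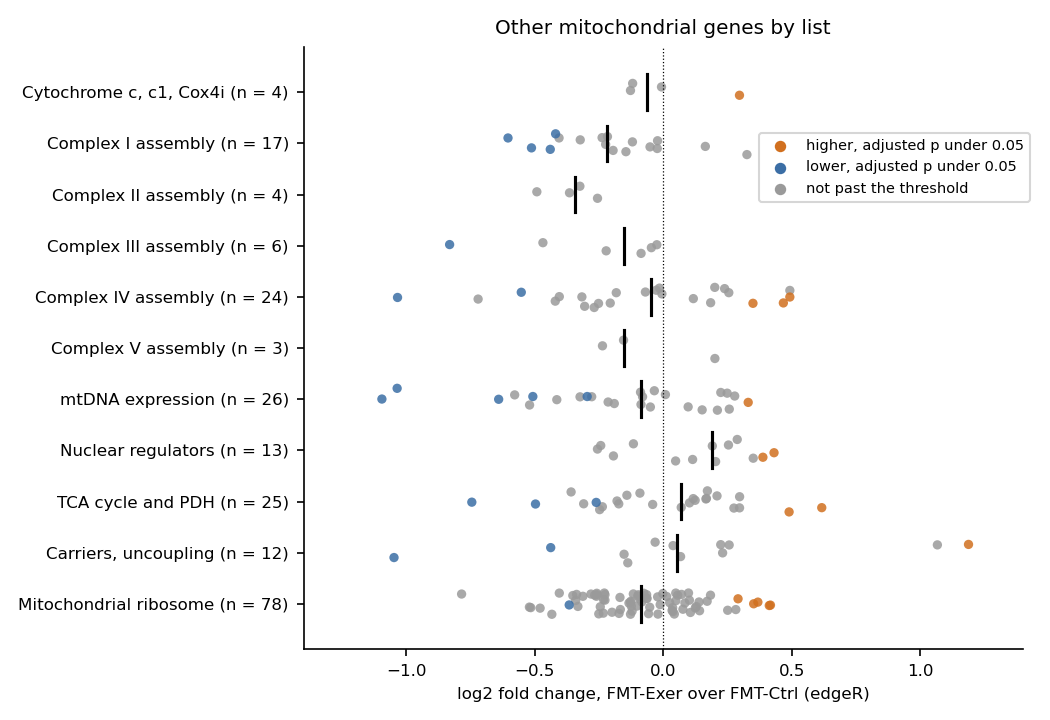
Log2 fold change (x axis, FMT-Exer over FMT-Ctrl) of the tested genes of each other mitochondrial list (y axis), with each point a gene, a vertical bar for the median and colour for an adjusted p under 0.05. *Mterf4*, *Mterf2*, *Higd1a* and *Slc25a27* lie near or below -1.03 and *Ucp2* at 1.19.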

How the data were processed

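RNA-Seq libraries from 6 samples of cultured BM MSCs were analysed, 3 of FMT-Ctrl and 3 of FMT-Exer. The authors deposited 1 table of expected counts per gene without normalization, 10.1% to 12.2% of whose values per sample are not whole. The genome build is mm10 per the labels, and the aligner and counting tool are not given in the sources used here. The methods name a TruSeq kit and the labels a stranded mRNA kit. No column was left unused.

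Counts were rounded, filtered (filterByExpr, 15190 genes), scaled by TMM and tested with edgeR 4.0.16 in R 4.3.3 (quasi-likelihood, group only, Benjamini-Hochberg over all genes, threshold 0.05, fold threshold 2). DESeq2 1.42.0, upper-quartile factors, library size only, scaling without mt- genes, other filters, the replicate block and leaving out each sample were alternatives. CPM uses TMM-scaled library sizes. Fits were tested on simulated data. Near-identical copies were found with blastn 2.17.0 (identity of at least 95%, at least 100 bases, at least 50% of either transcript) on GENCODE M21 and summed with their member as an alternative added after seeing the data. Copies that overlap their member or are members themselves were not summed. So *Ndufb4c*, which matches *Ndufb4* over 390 bases without a difference, was tested as a separate member (114 to 430 counts, against 56 to 176 for *Ndufb4*).

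Genes named were all mitochondrial members, members past both thresholds, per nuclear complex up to 5 with the smallest adjusted p-value among those under 0.05 and the 2 with the highest CPM, isoform families, complex II, and up to 3 called genes per other list, with all regulators and electron carriers. *Ndufs3*, the F1 subunits, and genes named only for a call without FMT-Ctrl replicate 1, for length or for an overlap, were chosen after their values were seen. Members and lists were chosen with earlier results of these data known. With 3 samples against 3, single-value tests were exact permutation tests. The values of 1 member are not reported here.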

Additional observations from a re-analysis of the deposited data

How the results depend on the processing

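Of the named genes, 30 were called and 9 of these, *Ndufa4l2*, *Uqcrc1*, *Higd1a*, *Mterf4*, *Mterf2*, *Pdha1*, *Pdk1*, *Slc25a4* and *Ucp2*, kept direction and call under all alternatives. Members called higher, 2 in the main analysis, were 1 with upper-quartile factors, library size only or at least 10 counts in every sample, 4 without a low-count filter, and 1 to 11 when a sample was left out. Members called lower, 6 in the main analysis, were 12 with DESeq2, 10 with upper-quartile factors or library size only, 19 without a low-count filter, 7 with copies added, and 1 to 21 when a sample was left out (15 without FMT-Ctrl replicate 1, 21 without FMT-Ctrl replicate 2). Members past both thresholds were 1 or 2. With the replicate number as a block, 3 members were higher and 18 lower, but same-numbered samples did not deviate together (correlations 0.025, -0.0017 and 0.042), so they share only a number. In the other mitochondrial lists, 15 genes were higher and 18 lower. With upper-quartile factors 8 were higher, with library size only 8, and 1 to 27 and 6 to 22 when a sample was left out. The median log2 fold change ranged from -0.29 to -0.08 for nuclear and from 0.04 to 0.41 for mitochondrial members when 1 choice was changed (-0.05 for the latter with copies added and FMT-Ctrl replicate 1 left out), and library size only moved the median of all genes to -0.10. The share of counts on mitochondrial protein genes changed from 0.253 to -0.082 percentage points (FMT-Exer minus FMT-Ctrl) without FMT-Ctrl replicate 1, and ranged from -0.082 to 0.424 over samples left out. The log2 fold change of *mt-Co1* was -0.14 without that library and ranged up to 0.18, without FMT-Ctrl replicate 2. Leaving out FMT-Ctrl replicate 3 or any FMT-Exer sample lowered the members called lower to 1 or 2 and the genes of other lists called lower to 6 to 10. These counts rest on fewer samples where one was left out, and otherwise the cause was not tested.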
